A study of Arabidopsis with 6 samples.

Results

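A set of 111 Arabidopsis genes was examined whose transcripts stayed close to their dark level after 0.5 h of light and were far higher after 2 h, in the wild type (WT) and in a line with RNA interference directed at PCD8 (RNAi-21). They were chosen from 18441 genes with a value of at least 1 in any library. On the log2(FPKM + 1) scale, the change from 0 h to 0.5 h had to lie between -0.5 and 0.5, and the change from 0 h to 2 h had to be at least 2, in both genotypes. These light changes chose the genes, so they are described below without a test. FPKM is a transcript level scaled for transcript length and library size, and a difference of 1 on the log2(FPKM + 1) scale is called 2-fold.

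RNA was sequenced from 6 libraries, 1 for each combination of genotype and light time. The labels call the genotypes wild type and PCD8 RNAi-21 mutant, and a single RNAi line was used. Seedlings of both genotypes were raised on MS agar at 22 °C for 4 days of darkness. Sampling took place at that point (0 h) or 0.5 h or 2 h after the light was turned on, at 120 μmol per square metre per second. The tissue is labelled leaf, no allele or promoter of the RNAi construct is given, and no dark library was taken at 0.5 h or 2 h, so an effect of light cannot be told apart from one of time.

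Each library listed 19763 genes, with FPKM summing to between 757504 and 891009, and the read depth is unknown. Every group is a single library, so the values carry no replicate error. The RNAi target PCD8 is not analysed here: the gene table pairs that name with no locus, and the RNAi-21 labels were not checked against it. The leaf mesophyll markers RBCS1A, LHCB2.1, LHCB1.2 and RCA were present throughout, with summed FPKM of 1739 to 2505 at 0 and 0.5 h and of 3258 and 3787 at 2 h. LHCB2.1 and RCA belong to the late set, which was chosen for higher levels at 2 h, and this choice raises the 2 h sums. Seed reserve markers stood apart in the WT library at 0.5 h, with a summed FPKM of 235 over 11 listed genes against 15.8 to 80.8 in the other libraries. Root markers summed to between 4018 and 5430 in WT and between 6207 and 7325 in RNAi-21. Most single root markers did not share this direction. Over the 8 that entered, the median log2(FPKM + 1) difference of RNAi-21 minus WT was -0.06, -0.13 and -0.11 at 0, 0.5 and 2 h. At 2 h 3 of the 8 were above WT. Xylem markers summed to between 318 and 450 at 0 and 0.5 h, and to 184 and 172 at 2 h in WT and RNAi-21. The 3 phloem markers ranged from 91.1 to 112 in WT and from 71.8 to 79.3 in RNAi-21 in summed FPKM. Epidermis markers summed to between 588 and 1032 and stomatal markers to between 6.64 and 9.14. No seed, root, xylem, phloem, epidermis or stomatal marker was in the late set, and the part of cell composition in the values below was not tested. In these bulk samples, fewer cells of a type and less RNA per cell cannot be told apart.

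Dark-grown Arabidopsis seedlings hold undeveloped plastids, and light starts greening. Photoreceptors release the transcription factor HY5 and its partners from degradation, and these act on genes for light harvesting, pigments and ultraviolet-screening flavonols. Genes that respond in such a programme are often divided into an early wave, which holds many regulators, and a later wave, which holds many enzymes and structural proteins.

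In both genotypes the late genes moved little at 0.5 h and strongly at 2 h. The median change at 0.5 h was 0.08 in WT and 0.19 in RNAi-21, and the median change at 2 h was 2.48 and 2.58. At 0.5 h, 62 of the 111 genes lay above their dark level in both genotypes and 11 lay below it in both. The changes at 2 h ran from 2.00 to 5.99 in WT and from 2.00 to 6.62 in RNAi-21. In 24 genes both changes were at least 3, and in 55 genes their mean was below 2.5, so many members lie near the lower limit. By the same limit of 2, 2.44% of all genes were higher at 2 h in WT, 2.77% in RNAi-21 and 2.15% in both, and 0.602% met the whole rule.

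**Figure D1:**
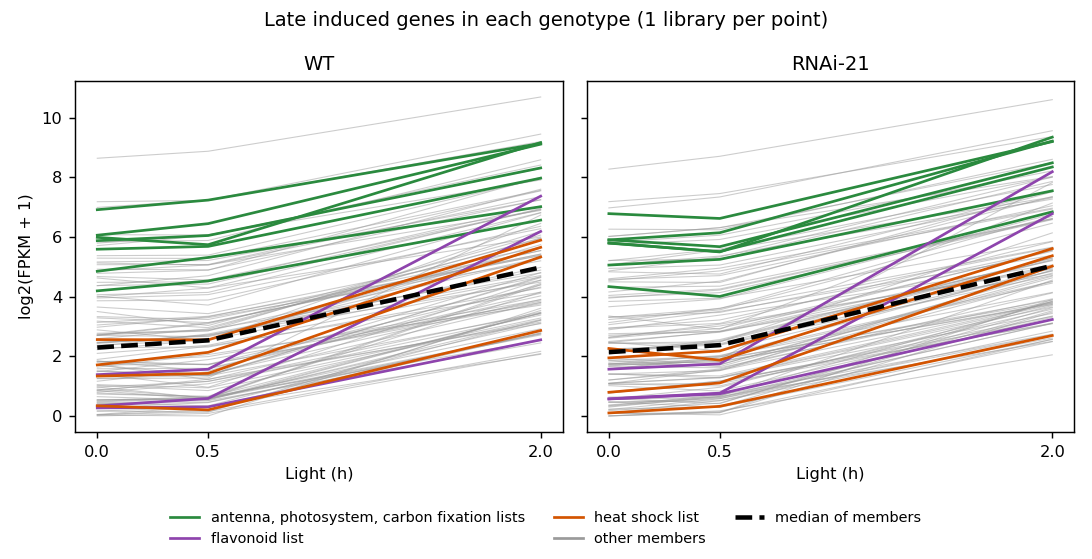
Levels of the 111 late genes on the log2(FPKM + 1) scale against hours of light, in WT and RNAi-21, with 1 library behind each point. Thin lines are single genes, coloured by gene list, and the dashed black line is the median of the set, which is nearly level to 0.5 h and steep to 2 h.

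Dark levels covered a wide range. In the dark the median FPKM of the set was 3.90 in WT and 3.41 in RNAi-21, and after 2 h it was 30.6 and 31.8. Below an FPKM of 1 in the dark in both genotypes were 25 genes, and 33 genes were at 10 or more in both. The set therefore joins genes that were barely listed in the dark with genes that were already abundant. The pseudocount of 1 holds low genes inside the flat band more easily than high ones. With a pseudocount of 0.1 the rule chose 104 genes, of which 71 were in the set of 111. FLS1, HSP21 and HSP23.6-MITO, described below, were among the genes that left the set, as they were then outside the flat band in at least 1 genotype.

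The nearest genes to the limits show how fine these are. PHOT2, the phototropin 2 blue light receptor, and EXPA10, an expansin of wall loosening, were just inside the flat band, with larger changes at 0.5 h of 0.49 and 0.48. WRKY57 and FIB4, with 0.504 and 0.508, were just outside it. NAC003 and the annexin gene ANNAT7 were just inside the limit of 2 at 2 h, each with a smaller change of 2.00. ADT5 and the sugar transporter gene SWEET2 were outside it with 1.99 and 1.97.

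The flavonoid genes TT4 and FLS1 had the highest mean 2 h changes of the set, and PAP1, the other late gene of the flavonoid list, had changes of 2.28 and 2.67, near the medians of the set. TT4 (AT5G13930), the chalcone synthase that opens the flavonoid pathway, was at FPKM of 1.61, 1.96 and 165 at 0, 0.5 and 2 h in WT. In RNAi-21 it was at 1.97, 2.36 and 292. The 2 h level was 102 times the dark level in WT and 148 times in RNAi-21. FLS1 (AT5G08640), the flavonol synthase, went from 0.260 and 0.502 to 72.0 in WT, and from 0.490 and 0.698 to 109 in RNAi-21. PAP1 (AT1G56650), the MYB regulator of anthocyanin genes, was far lower, with 0.205, 0.234 and 4.87 in WT and 0.483, 0.675 and 8.42 in RNAi-21. The rule gave these 3 genes their shared timing, and their 2 h levels differ widely.

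Of 18 genes of the flavonoid list that entered, 10 were higher by at least 2 at 2 h in both genotypes. The late ones were 3 of the 10, 30.0%, against 28.0% over all genes with such a change. Flavanone hydroxylase F3H, which acts between TT4 and FLS1 in the pathway, was already higher by 1.55 in WT and 3.43 in RNAi-21 at 0.5 h. Chalcone isomerase TT5, its helper CHIL and the flavonol regulator MYB12 were flat in WT at -0.02, -0.05 and 0.05, and were outside the band in RNAi-21 at 0.65, 0.69 and 0.65. In the phenylpropanoid list, which supplies the flavonoid precursor, 4CL3 was the 1 gene of 10 higher by at least 2 in both, and it was late. 4CL3 (AT1G65060), a 4-coumarate:CoA ligase, went from 0.566 and 0.441 to 9.98 in WT, and from 0.551 and 0.604 to 13.3 in RNAi-21.

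The 8 late genes of the antenna, photosystem, carbon fixation and photorespiration lists were at FPKM of 16.9 or more in the dark in both genotypes. LHCB2.2 (AT2G05070), a chlorophyll-binding antenna protein of photosystem II, was at FPKM of 62.6, 52.6 and 576 in WT and at 55.0, 44.3 and 653 in RNAi-21. LHCB2.1 (AT2G05100) was at 65.9, 86.5 and 555 in WT and at 58.9, 69.8 and 596 in RNAi-21. They are neighbours on the chromosome and near-identical copies, so the split of reads between them is uncertain. LHCA1 (AT3G54890), an antenna protein of photosystem I, was at 57.9, 65.4 and 319 in WT and at 59.1, 50.2 and 359 in RNAi-21. At 2 h all 3 antenna genes were at 319 or more in both genotypes, from dark levels of 55.0 to 65.9.

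The other photosynthesis genes of the set belong to the photosystems, the ATP synthase and carbon fixation. RCA (AT2G39730), the Rubisco activase, was at FPKM of 120.0, 150.3 and 565 in WT and at 109, 97.8 and 589 in RNAi-21. FBA1 (AT2G21330), a plastid aldolase of the Calvin cycle, was at 17.3, 22.1 and 94.0 in WT and at 19.2, 15.1 and 114 in RNAi-21. At 0.5 h both genes were above their dark level in WT and below it in RNAi-21, inside the flat band. PSAH2 (AT1G52230), a photosystem I subunit, was at 47.3, 50.6 and 251 in WT and at 54.6, 44.7 and 326 in RNAi-21. ATPD (AT4G09650), the delta subunit of the chloroplast ATP synthase, was at 27.9, 38.9 and 129 in WT and at 32.4, 37.1 and 187 in RNAi-21. GLDP1 (AT4G33010), the P protein of glycine decarboxylase in photorespiration, was at 19.7, 25.1 and 194 in WT and at 16.9, 22.0 and 163 in RNAi-21. It was the 1 gene of 15 in the photorespiration list higher by at least 2 in both genotypes. Annotated loci that are also listed overlap RCA, PSAH2 and GLDP1, and no source states that strand was used in counting, so reads of such partners cannot be told apart.

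**Figure D2:**
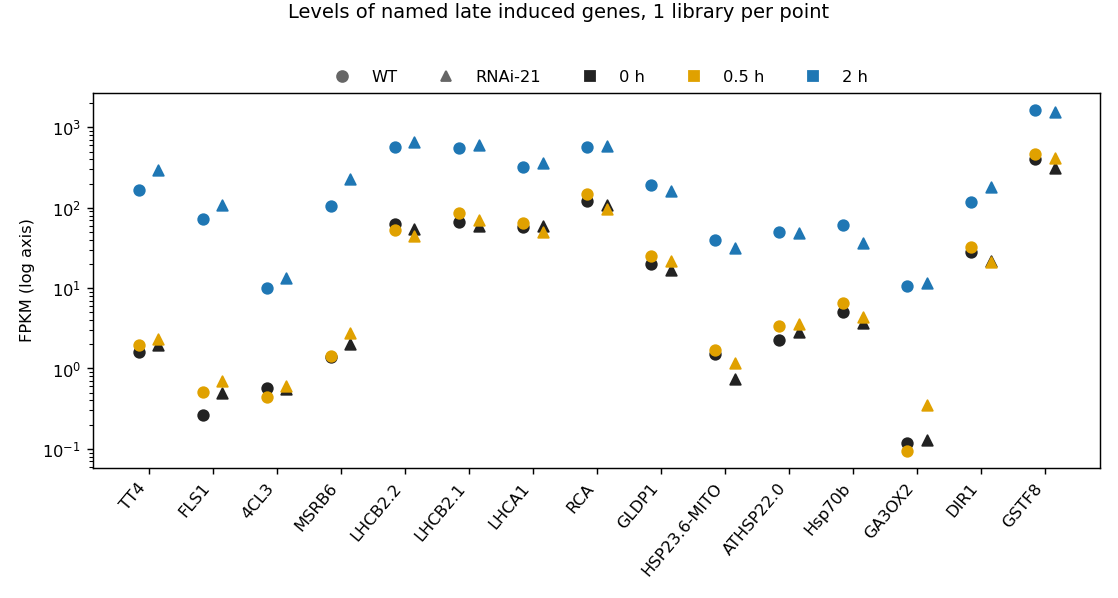
FPKM (log axis) of 15 late genes, with circles for WT, triangles for RNAi-21 and colours for the light time, 1 library per point. In each of the 15 genes both 2 h points lie above all 0 h and 0.5 h points. The choice of the genes requires this only within each genotype.

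Heat shock proteins of several cell compartments were in the set. HSP23.6-MITO (AT4G25200), a mitochondrial small heat shock protein, was at FPKM of 1.52, 1.69 and 39.4 in WT and at 0.734, 1.15 and 31.6 in RNAi-21. ATHSP22.0 (AT4G10250), of the endoplasmic reticulum, was at 2.28, 3.39 and 49.5 in WT and at 2.86, 3.53 and 48.0 in RNAi-21. HSP21 (AT4G27670), of the plastid, was at 0.266, 0.151 and 6.29 in WT and at 0.0717, 0.25 and 5.49 in RNAi-21. These 3 genes were low in the dark and higher by 2.53 to 4.23 at 2 h. AT1G53540, named by its identifier because the table gives no symbol, was the last member from the heat shock list, at 4.90, 4.87 and 58.6 in WT and at 3.80, 2.66 and 40.5 in RNAi-21. Hsp70b (AT1G16030), an HSP70 chaperone outside the list, was at 5.03, 6.57 and 61.7 in WT and at 3.68, 4.35 and 36.5 in RNAi-21.

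Of 24 genes of the heat shock list that entered, 14 were higher by at least 2 at 2 h in both genotypes. The late ones were 4 of the 14, 28.6%, against 28.0% over all genes with such a change. The heat shock factor HSFA2, which drives chaperone genes, was higher by 1.95 in WT and 3.71 in RNAi-21 at 0.5 h, and the disaggregase HSP101 by 1.61 and 2.91. HSP17.6II was flat in WT at 0.11 and outside the band in RNAi-21 at 0.62.

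The light signalling, clock and photoprotection lists gave no late genes. This holds for the lists as drawn up, since the blue light receptor gene PHOT2 is late but was in no list. In the light signalling list 14 of 32 genes were higher by at least 2 at 2 h in both genotypes, in the clock list 5 of 16 and in the photoprotection list 5 of 9, and none of these 24 genes was flat at 0.5 h in both. HY5 was higher by 2.05 and 2.87 at 0.5 h in WT and RNAi-21, the clock gene PRR9 by 2.43 and 3.33, and the photoprotective ELIP2 by 1.03 and 1.02. In contrast, the antenna, photosystem and carbon fixation lists held 12 such genes among 66, and 7 of the 12, 58.3%, were late. The rest were not all early rises. CAB2 and LHCB3 were below the band in RNAi-21 at 0.5 h, at -1.38 and -0.69, and inside it in WT. NPQ4, FD1 and RBCS1B were above the band in at least 1 genotype. Over all genes, 28.0% of those higher by at least 2 in both genotypes were late. These shares are a description of the lists, whose genes were picked with earlier results of the data known, and no test was made between them. The 2 tetrapyrrole genes higher by at least 2 at 2 h, GUN5 and GUN4 of the Mg-chelatase step, were outside the band in both genotypes and in WT respectively.

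**Figure D3:**
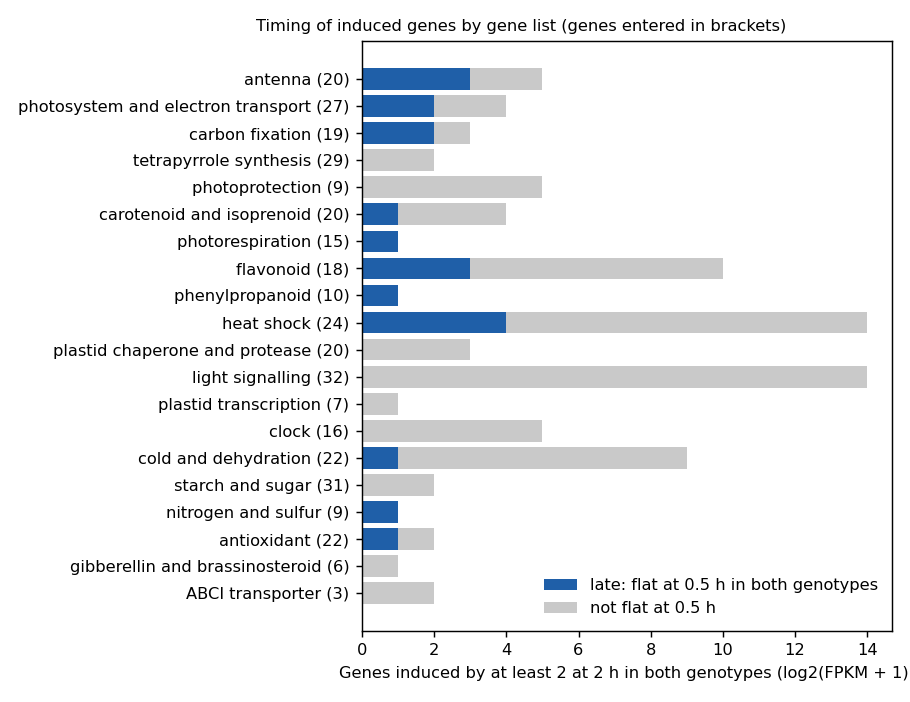
Number of genes per list that were higher by at least 2 on the log2(FPKM + 1) scale at 2 h in both genotypes, with blue for late genes and grey for genes not flat at 0.5 h, and the number of genes that entered in brackets. Light signalling, clock and photoprotection bars are all grey, while 7 of the 12 genes in the antenna, photosystem and carbon fixation bars are blue.

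Late genes of other fixed lists came singly. VTE1 (AT4G32770), the tocopherol cyclase of vitamin E synthesis, was at FPKM of 2.51, 2.28 and 13.5 in WT and at 2.34, 2.76 and 13.1 in RNAi-21. APR2 (AT1G62180), a reductase of sulfate assimilation, was at 21.4, 21.6 and 131 in WT and at 23.3, 30.1 and 124 in RNAi-21. LTI30 (AT3G50970), a dehydrin, was at 40.6, 41.1 and 249 in WT and at 52.8, 59.5 and 258 in RNAi-21. LTI30 was the 1 late gene among 9 of the cold and dehydration list that were higher by at least 2 in both genotypes. GPX7 (AT4G31870), a glutathione peroxidase in the antioxidant list, was near 0 before 2 h and reached 3.49 in WT and 4.63 in RNAi-21. In all, 20 of the 111 genes were in 1 of the 25 lists.

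Several genes with large changes were in no list. MSRB6 (AT4G04840), a methionine sulfoxide reductase that repairs oxidised methionine, was at FPKM of 1.38, 1.42 and 106 in WT and at 1.99, 2.74 and 227 in RNAi-21. Its changes at 2 h, 5.49 and 6.25, had the highest mean after those of TT4 and FLS1. GA3OX2 (AT1G80340), a gibberellin 3-oxidase that makes active gibberellin, was at 0.119, 0.0943 and 10.6 in WT and at 0.130, 0.349 and 11.4 in RNAi-21. The serine carboxypeptidase-like gene scpl10 (AT2G23000) was at 0.0186, a listed 0 and 11.2 in WT, and at a listed 0, 0.0823 and 14.0 in RNAi-21. Both genes were near the floor of the table before 2 h. DMP1, a membrane protein gene, and BLH6, a BEL1-like homeodomain transcription factor, reached 16.8 and 20.2 in WT and 12 and 21.9 in RNAi-21, each from below 2 before. A listed locus overlaps DMP1.

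Some abundant late genes in no list were singled out after their values were seen. GSTF8 (AT2G47730), a glutathione S-transferase, was at FPKM of 399, 470.3 and 1664 in WT and at 309.9, 418 and 1563 in RNAi-21, the highest 2 h level of the set. GPX6 (AT4G11600), annotated as a glutathione peroxidase, was at 127, 150.3 and 701 in WT and at 125, 162 and 759 in RNAi-21. GR1 (AT3G24170), which reduces glutathione, was at 56.3, 58.2 and 385 in WT and at 64.1, 78.5 and 360.3 in RNAi-21. GSTU4, a further glutathione S-transferase, was much lower and reached 23.9 in WT and 21.7 in RNAi-21. Listed loci overlap GR1 on both sides. AOX1A (AT3G22370), the mitochondrial alternative oxidase, went from 34 and 32.5 to 163 in WT, and from 32.4 and 40.2 to 154 in RNAi-21. Of the 43 genes without a symbol, AT4G30460, AT3G57010 and AT1G07985 had the highest 2 h levels averaged over the genotypes, at 315, 257 and 151 in WT and at 389.6, 257 and 161 in RNAi-21.

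The rule does not use the difference between the genotypes at a given time, and this was compared next. In the dark and at 0.5 h no late gene differed by at least 2-fold in either direction, where the shares of all genes higher or lower in RNAi-21 were 0.168% and 0.396% in the dark and 0.841% and 0.428% at 0.5 h. The flat band limits how far this difference can move between 0 and 0.5 h. At 2 h 1 late gene, MSRB6, was at least 2-fold higher in RNAi-21, with a difference of 1.09, and none was at least 2-fold lower, against 0.575% and 0.222% of all genes. The 1 gene is 0.901% of the 111, and each share compares 1 library with 1 library.

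Small differences leaned towards RNAi-21. At 2 h, 74 of the 111 late genes were above WT, 66.7% against 47.1% of all genes, and 37 were below it, against 52.8% of all genes. The median difference was 0.13 against -0.02. Among the 285 other genes higher by at least 2 at 2 h in both genotypes, 184 were above WT and 101 below. Their median difference was 0.11, so the lean at 2 h was not particular to the late set. At 0.5 h, 67 late genes were above and 44 below, against 45.5% and 54.5% of all genes. In the dark 57 were above and 54 below, against 48.6% and 51.3%. The 2 h share depends on scaling. With organelle genes left out and library totals equalised, 59 of the 111 were above WT, 53.2% against 32.9% of all genes, the median of the 111 was 0.01 and that of all genes -0.12. On the deposited values, the change from 0 h to 2 h was within 0.5 of equal between the genotypes in 95 late genes. It was larger by more than that in RNAi-21 in 14 and in WT in 2. By any amount, it was larger in RNAi-21 in 76 of the 111, against 194 of the 285 other induced genes and 9530 of all 18441. The median differences were 0.14, 0.16 and 0.01. Summed FPKM at 0 and 2 h was 829043 and 823287 in WT, and 792994 and 891009 in RNAi-21, and its part in these counts was not tested. The counts of changes were made on the deposited values only, where the median genotype difference of the 111 was 0.01 in the dark and 0.13 at 2 h. With totals equalised it was 0.05 and 0.01, so it no longer rose between these times. Over all genes it was then 0.05 and -0.12.

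By list, the genotype differences at 2 h, each between single libraries and without a test, had the following signs. All 3 late flavonoid genes were higher in RNAi-21, TT4 by 0.82, FLS1 by 0.60 and PAP1 by 0.68, and all kept that sign under both other scalings. All 4 late genes of the heat shock list were lower in RNAi-21, with differences of -0.04 to -0.52. Hsp70b had the lowest difference of the set at -0.74. These signs also held under both scalings, but ATHSP22.0 was near equal, at -0.04 and, with median-ratio scaling, at -0.0037. Over all genes of each list that entered, 16 of 18 flavonoid genes and 4 of 24 heat shock genes were above WT at 2 h, so the late genes had the sign of most of their list. The 7 late genes of the antenna, photosystem and carbon fixation lists were all below WT at 0.5 h, with differences of -0.06 for ATPD to -0.62 for RCA. Over all genes of these lists that entered, the median differences at 0.5 h were -0.54, -0.58 and -0.39. The late genes thus had the sign of their list medians. At 2 h all 7 were above WT, by 0.06 for RCA to 0.53 for ATPD. Of all genes that entered, 16 of 20 in the antenna list, 25 of 27 in the photosystem list and 14 of 19 in the carbon fixation list were above WT at 2 h. With totals equalised LHCB2.1 and RCA turned below WT at 2 h, at -0.01 and -0.05. No library is common to the 0.5 h and 2 h comparisons, and each rests on 1 library per genotype.

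**Figure D4:**
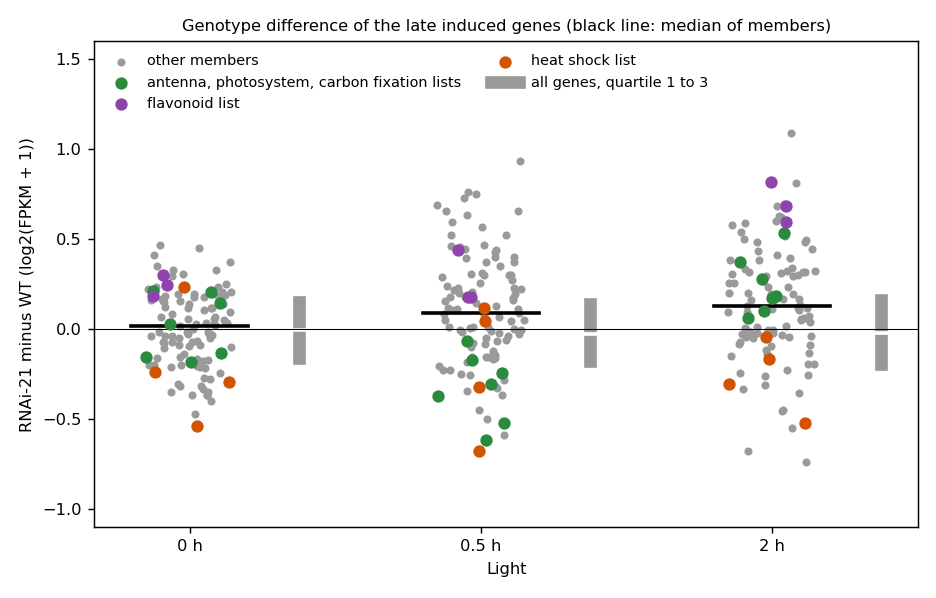
Difference of RNAi-21 minus WT on the log2(FPKM + 1) scale at 0, 0.5 and 2 h for each late gene (points, spread sideways at random), with the median of the set as a black line and the quartiles of all 18441 genes as a grey bar. The green photosynthesis points lie below 0 at 0.5 h and above 0 at 2 h, the purple flavonoid points lie above 0 at all times, and the orange heat shock points lie below 0 at 2 h.

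Among late genes that have a symbol and reach an FPKM of 5 at 2 h in both genotypes, the 5 highest and 5 lowest genotype differences at 2 h were looked up. Next to MSRB6, TT4 and FLS1 at the upper end stood DIR1, a lipid transfer protein of systemic resistance, at 0.62 and ANNAT7 at 0.58. DIR1 (AT5G48485) was at FPKM of 28.1, 32.5 and 118 in WT and at 21.6, 21.3 and 182 in RNAi-21. At the lower end, next to Hsp70b, stood the glycosyltransferase gene UGT85A1 at -0.68, DMP1 at -0.46, the mechanosensitive channel-like gene MSL4 at -0.36 and the cellulose synthase-like gene CSLB04 at -0.31. UGT85A1 (AT1G22400) was at 1.99, 2.03 and 16.3 in WT and at 1.65, 1.43 and 9.85 in RNAi-21.

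A genotype effect over the 3 light times was tested with limma, in a fit to all 18441 genes with light time and genotype as terms. None of the 111 late genes passed an adjusted p of 0.05, while 31 of all genes did, 0.168%, with 0.0976% higher and 0.0705% lower in RNAi-21. At an unadjusted p under 0.05 there were 28 late genes, 25.2%, against 12.4% of all genes. Among the late genes with a symbol, Hsp70b had the smallest p, with an effect of -0.54 ± 0.11 (SE, 3 light times) and an adjusted p of 0.172 in limma. MSRB6 had an effect of 0.68 ± 0.15 and an adjusted p of 0.200 in limma, and was higher in RNAi-21 at all 3 times. MSRB6 passed when the 0 h or the 0.5 h libraries were left out, with effects of 0.86 and 0.71 and adjusted p of 0.0316 and 0.0163, in fits with 1 residual degree of freedom. These fits called 176 and 155 of all genes, 0.954% and 0.841%, and 1 of 111 is 0.901%. With all 6 libraries 2 residual degrees of freedom were left, from no replicate plants. The error of this fit is the unevenness of the genotype difference over the times, which the flat band limits in these genes, so their unadjusted p can be too small.

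The timing of the 396 genes higher by at least 2 at 2 h in both genotypes places the late set. Besides the 111 genes flat in both, 113 were flat in WT alone and 11 in RNAi-21 alone, and 161 were flat in neither. Of the 113 genes flat in WT alone, 111 lay above the band in RNAi-21. The counts flat in WT alone and in RNAi-21 alone were 122 and 11 with median-ratio scaling, 102 and 12 with totals equalised, and 157 and 44 with a pseudocount of 0.1. Their order was thus the same in each of these settings. Over the 285 genes outside the late set, the median change at 0.5 h was 0.59 in WT and 1.14 in RNAi-21, and their median change at 2 h was 2.74 and 2.96. The changes at 0.5 h are part of the rule, so these counts describe it and are not a test of a genotype difference.

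**Figure D5:**
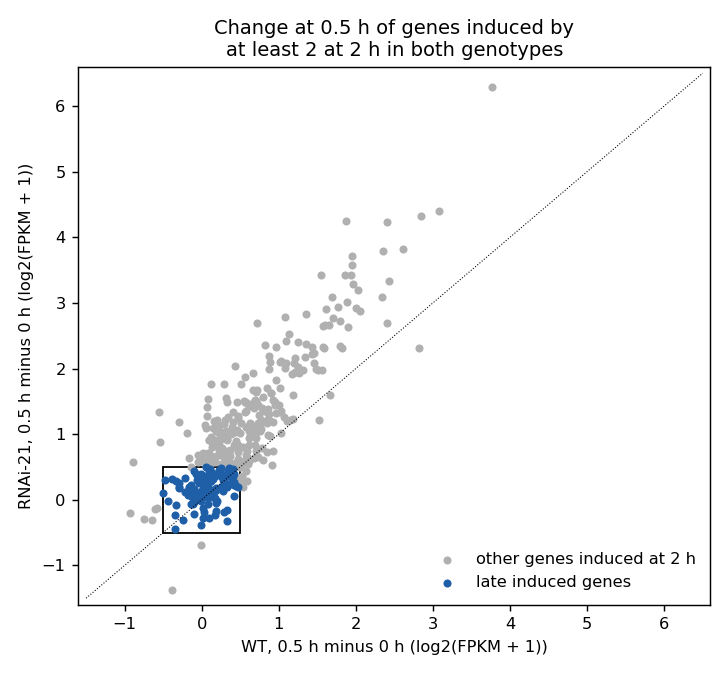
Change from 0 h to 0.5 h in RNAi-21 (vertical axis) against that in WT (horizontal axis), on the log2(FPKM + 1) scale, for the 396 genes higher by at least 2 at 2 h in both genotypes. The box is the flat band that holds the 111 late genes (blue), the dotted line marks equal change, and 111 grey points lie straight above the box where WT was flat and RNAi-21 was not.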

How the data were processed

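The members and gene lists were chosen with earlier results of these data known. The authors deposited 1 table per library, read here as FPKM from its non-integer values and sums that differ between libraries; no header names the unit, and TPM of part of the genes is also possible. The submitters' processing notes name HISAT and Bowtie2 with no version. The quantification tool, build and gene models behind the values were not given in the sources used here. Per the labels' protocols, total RNA came from a TRIzol extraction and was made into standard Illumina libraries. Without counts, depth is unknown and no interval is given.

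Values were transformed as log2(FPKM + 1), and 18441 of 19763 genes reached 1 in any library. Symbols came from the RefSeq TAIR10.1 table, which held all 111 members and gave 68 a symbol. Its coordinates were used only for neighbours and overlaps. No test was made where a single library faces a single library. The genotype effect came from limma with light time as a term, a variance trend and Benjamini-Hochberg adjustment over all genes. The fit was run on simulated data with additive effects and independent error. Those data had no choice of genes by a flat band, so they cannot check the p of the late genes. The planned search for promoter motifs was not run, as no sequences were used here.

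Named genes were members that have a symbol and reach an FPKM of 5 at 2 h in both genotypes: the 12 with the highest mean 2 h change, up to 4 per list, the 5 highest and 5 lowest genotype differences at 2 h, 2 on each side of each limit, and 3 without a symbol. Others, including F3H, TT5, CHIL, MYB12, HSFA2, HSP101, HSP17.6II, HY5, PRR9, ELIP2, GUN5, GUN4, PAP1, GPX7, GSTF8, GPX6, GR1, GSTU4 and AOX1A, were named after their values were seen. Alternatives tried were median-ratio scaling, totals equalised after leaving out organelle genes, a pseudocount of 0.1, a filter of 5 or none, other limits of the rule, a fit with no term for light time, one with no variance trend, and fits without each light time in turn. The tools were limma 3.58.1 in R 4.3.3, and pandas 2.3.3, numpy 2.4.6 and matplotlib 3.10.9 in Python 3.11.15.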

Additional observations from a re-analysis of the deposited data

Results flagged for a closer look

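DIR1 (AT5G48485) was the 1 late gene whose genotype difference was at least 0.5 in size at 2 light times with opposite signs. RNAi-21 minus WT was -0.59 at 0.5 h and 0.62 at 2 h on the log2(FPKM + 1) scale. The difference between the times was not tested, since each value compares 1 library with 1 library, and it kept both signs with median-ratio scaling (-0.55 and 0.66) and with totals equalised (-0.54 and 0.51).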

How the results depend on the processing

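The number of late genes depends on the limits of the rule: 41 genes with a flat band of 0.25, 225 with a band of 1, 247 with a 2 h change of at least 1.5 and 24 with one of at least 3. It was 104 with a pseudocount of 0.1, 107 with a filter of 5, 113 with median-ratio scaling and 90 with totals equalised. The 1 late gene at least 2-fold higher in RNAi-21 at 2 h became 0 with totals equalised and with a band of 0.25, 2 with a band of 1, 3 with a limit of 1.5 and 4 with a pseudocount of 0.1. The counts of 0 elsewhere became 1 lower in the dark and 1 higher at 0.5 h with a pseudocount of 0.1, and 1 higher in the dark and 6 higher at 0.5 h with a band of 1. The median genotype difference at 2 h, with the genes chosen anew, was 0.0768 with totals equalised and 0.20 with a band of 0.25. In limma 1 late gene, MSRB6, passed without the 0 h libraries (adjusted p = 0.0316) and without the 0.5 h libraries (adjusted p = 0.0163), in fits that called 0.954% and 0.841% of all genes, and 0 passed without the 2 h libraries, without a variance trend or without the light time term. These fits without a time have 1 residual degree of freedom. No paired analysis was possible because each group holds 1 library and the labels carry no replicate number. Unknown depth limits the low genes most.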

Other observations

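Late genes lay next to each other in 5 places, counting listed genes in RefSeq order. These pairs were LHCB2.2 with LHCB2.1, the cellulose synthase-like genes CSLB03 with CSLB04, AT2G36290 with AT2G36295, AT2G36780 with AT2G36792, and AHP1 with DMP1. CSLB03 was at FPKM of 1.03, 0.804 and 8.41 in WT and at 0.464, 0.542 and 8.91 in RNAi-21, and CSLB04 at 1.61, 1.54 and 9.75 in WT and at 1.09, 1.13 and 7.67 in RNAi-21. AHP1 (AT3G21510), a histidine phosphotransfer protein of cytokinin signalling, was far higher than its neighbour DMP1, at 38.2, 37.9 and 189 in WT and at 35.9, 47.4 and 216 in RNAi-21. AT2G36792, at 7.87 and 9.20 at 2 h in WT and RNAi-21, is the 1 long non-coding RNA of the set, and the other 110 genes are protein coding. A listed locus overlaps 18 of the 111 genes, so some of their reads cannot be told apart from those of a partner.

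Of the late genes in no list, 3 more are given here, chosen after their values were seen. EXPA16, an alpha-expansin, was at 4.39, 5.59 and 25.2 in WT and at 3.33, 4.63 and 37.1 in RNAi-21, so its genotype difference went from -0.32 in the dark to 0.54 at 2 h. EXPA10 was at 6.87, 9.03 and 45.7 in WT and at 7.77, 11.2 and 49.6 in RNAi-21, with a difference of 0.12 at 2 h. DFL1 (AT5G54510), a GH3 enzyme that conjugates auxin, was at 29.4, 28.9 and 152 in WT and at 29.9, 32.4 and 159 in RNAi-21.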
